A study of Homo sapiens with 60 samples.

Results

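The subject is how RNA levels differed between the 2 media of the study in spheroids that had grown with hemin. HCT116 is a human colorectal cancer cell line, here grown as spheroids in agarose microwells. The comparison sets the 5 libraries of Medium 2 with hemin against the 5 libraries of Medium 1 with hemin, 10 of 60 libraries in all, taken by the medium and the treatment in the column names and without the libraries that received hemin together with kynurenine. Hemin, oxidised heme with its iron and a chloride, was given at 0.1 µM from day 1 to day 8 after seeding. All groups grew in high-glucose DMEM with serum, antibiotics and non-essential amino acids. Per the series design, spheroids were taken either directly or after 3 h in a medium poor in nutrients. The labels leave it unsaid which of these Medium 1 and Medium 2 are, and their treatment field reads untreated and nutrient-rich for all 60 samples, so groups come from the sample titles, the media keep their labelled names, and fold changes are Medium 2 over Medium 1. Where a gene is said to differ or to have risen by a number, that number is a log2 fold change. The reference groups are untreated spheroids in each medium and, where named, those given butyrate, kynurenine or kynurenic acid, each at 1 µM, or hemin plus kynurenine, with 5 libraries per medium. All libraries come from 1 cell line. The 5 samples of a group are labelled biological replicates, without a word on separate cultures or dates, so a p-value reflects how these samples varied, which may be technical. In such bulk libraries fewer cells of a kind and less RNA per cell cannot be told apart.

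Heme is taken up or made by cells, used in heme proteins, and broken down by heme oxygenase 1 (HMOX1), which releases iron that ferritin stores. Free heme binds BACH1, a repressor of HMOX1 and of ferritin genes, and oxidative stress frees NRF2 to act on overlapping targets. A lack of amino acids or glucose is sensed by separate routes: the kinase GCN2 and the transcription factor ATF4 in the integrated stress response, PERK, IRE1 and ATF6 in the unfolded protein response of the endoplasmic reticulum, and mTORC1, whose inhibitor DDIT4 several of these routes induce. The series, per its title, is about red meat metabolites and nutrient deprivation, and this comparison asks what the change of medium does to spheroids grown with hemin.

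Library totals ran from 1563678 to 2545112 counts in Medium 1 with hemin and from 1346135 to 1824740 in Medium 2 with hemin. TMM scaling factors were 1.02 to 1.109 in Medium 1 and 0.9202 to 0.9788 in Medium 2, and 13911 to 14750 against 13047 to 13684 genes had a count. Ribosomal protein genes took 8.727 to 10.05% of counts in Medium 1 and 10.02 to 10.78% in Medium 2. Libraries of a group sat next to each other on the plate, Medium 1 with hemin in wells C2 to G2 and Medium 2 with hemin in wells A6 to E6, so plate column and medium cannot be told apart. The 20 pairs of libraries within the hemin groups differed by more than counting error (chi-square over its degrees of freedom, 2.6 to 13.4).

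The 5 Medium 1 libraries with hemin were unlike each other, as were those of some other groups. On the second principal component of all 60 libraries, which held 11% of the variance, untreated Medium 1 libraries scored 7.865 to 21.03, and wells C2, D2, E2, F2 and G2 scored -18.5, -17.7, -1.1, -31.9 and 12.5. On it well G2 lay among the untreated libraries of its medium, and C2, D2 and F2 lay far from them. The Medium 2 hemin libraries scored -5.38 to -1.1. Medium 1 with butyrate ran from -29.3 (well B2) to 19.5 (well F1) on this component. Medium 2 with kynurenine had well A7 at -45.8. The median SD of log2 CPM was 0.331 and 0.3655 in these groups, 0.3109 in Medium 1 with hemin and 0.2482 in untreated Medium 1. Among the 10 hemin libraries alone G2 was the Medium 1 well apart, with a first component score of -3.178 against -39.4 to -19.47. The pairs of C2 and of D2 with G2 had the largest chi-square values (13.4 and 12.4). F2 and G2 lay farthest from the mean of the rest of their group (0.545 and 0.5303). Counts and most named genes that lost their call are given below also without C2, D2 and F2, which leaves E2 and G2 on the Medium 1 side. That choice was made after seeing the data, by distance from untreated libraries, and favours small differences from them. In the fit without these 3 wells 122 of 11677 genes were higher and 151 lower, the background for each list count given without them. There 58 of 139 named genes kept their call while 81 lost it. Without the 3 wells the median SE of the log2 fold change was 0.22 in place of 0.167 for the genes called higher. It was 0.266 in place of 0.208 for those called lower.

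**Figure D1:**
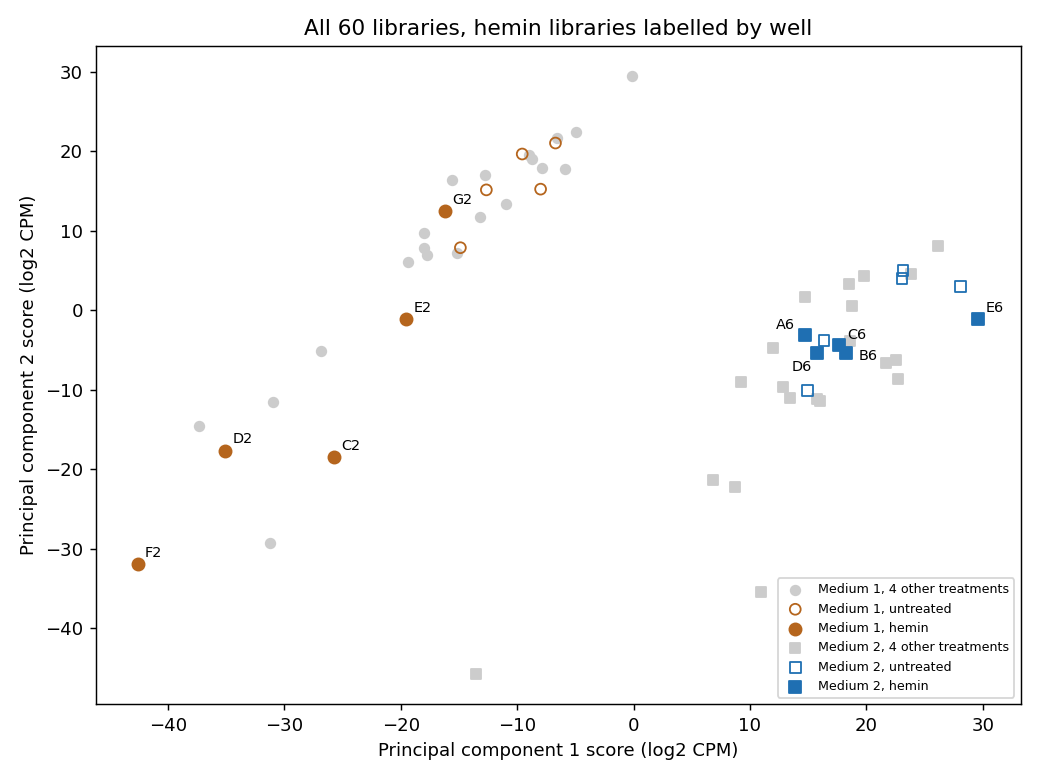
Scores of all 60 libraries on principal components 1 and 2 of log2 CPM (horizontal and vertical axes), with filled coloured symbols for the 10 hemin libraries, open symbols for untreated ones and grey for the other treatments. Medium 1 wells C2, D2 and F2 lie at -18.5, -17.7 and -31.9 on component 2, below the untreated Medium 1 libraries, while the Medium 2 hemin libraries lie together.

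The labelled cell type was checked by 16 markers of colon epithelium. Their summed level was 1290 to 1450 CPM (counts relative to the TMM-scaled library total) in the Medium 1 hemin libraries and 1210 to 1380 in those of Medium 2, and 6 of the 16 passed the filter on low counts. VIL1, MUC2, GPA33, CDH17 and TFF3 were listed at 0 in all 10 libraries. CDX1, CEACAM5, CEACAM6, LGALS4 and KRT20 had 1, 2, 2, 1 and 21 counts over the 10 libraries together. The sum came mostly from KRT19, EPCAM, KRT18 and KRT8, with means of 409, 367, 269 and 207 CPM in Medium 1. In Medium 2 their means were 314, 363, 236 and 276 CPM. The keratin KRT8 had a log2 fold change of 0.42 (adjusted p = 0.0127, SE 0.13) and KRT19 of -0.38 (adjusted p = 0.0212, SE 0.13). Of the 10 fits without 1 library, KRT8 lost its call in 1 and KRT19 in 3. Markers of other cells were at or near 0: summed CPM in the 10 libraries was 4.7 to 17.4 for 10 fibroblast genes, 1.04 to 7.38 for 11 immune genes, 0 to 2.43 for 7 endothelial genes and 2.68 to 7.94 for 6 erythroid genes in the table, with COL1A2, COL3A1, CD3E, CD163, AHSP and GATA1 at 0 throughout. Without the 3 wells KRT8 and KRT19 did not pass (0.24 and -0.30, adjusted p = 0.501 and 0.356).

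Under hemin, RNA of the stress genes DDIT4, HERPUD1, DNAJB9, DDIT3 and ATF3 was several-fold higher in Medium 2, and the nuclear RNA NEAT1, the small nucleolar RNA host gene SNHG12 and the signalling inhibitor SMAD7 were several-fold lower. Of 11298 genes tested, 1422 were higher in Medium 2 (12.6%) and 1283 lower (11.4%) at an adjusted p under 0.05. Each adjusted p below is Benjamini-Hochberg's, from the quasi-likelihood test of edgeR. A difference of at least 2-fold was found for 218 higher genes (1.93%) and 351 lower genes (3.11%). The 5 libraries of each medium did not overlap for 777 genes with higher values in Medium 2 (6.88%) and 597 with lower values (5.28%). The median log2 fold change over all genes was 0.000347. Without wells C2, D2 and F2, 122 genes were higher and 151 lower, of which 120 and 142 were among those above. All 1422 higher genes and 1279 of the 1283 lower ones kept their sign. Their median log2 fold changes went from 0.616 to 0.466 and from -0.739 to -0.559. The smaller fit shares all its libraries with the full one, in which these genes were picked, so kept signs are no separate check. Leaving out 1 library at a time gave 967 to 1564 higher and 867 to 1573 lower genes, with the lowest numbers without well D2 and the highest without well G2.

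**Figure D2:**
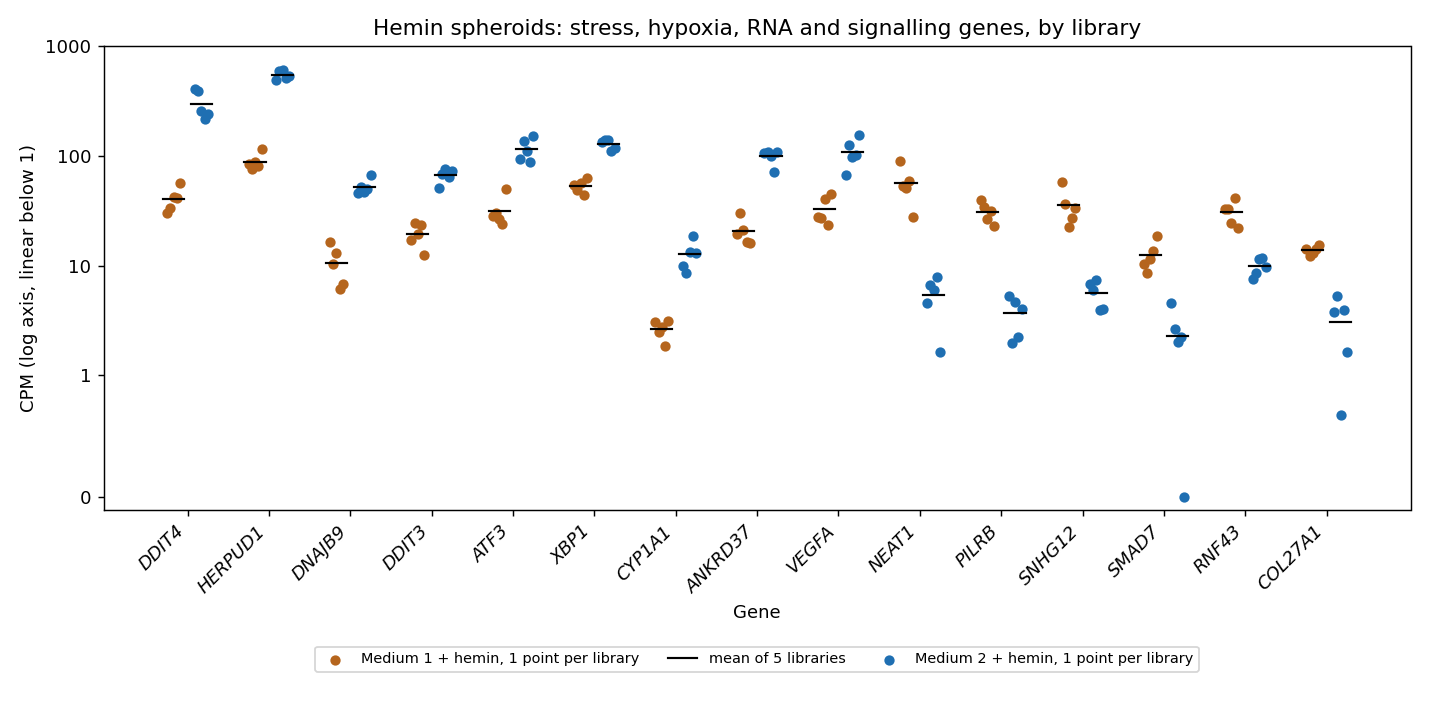
CPM of 15 genes (vertical axis, logarithmic above 1 and linear below) in each of the 5 Medium 1 and 5 Medium 2 hemin libraries, with bars at group means. DDIT4, HERPUD1, DNAJB9, DDIT3, ATF3, XBP1, CYP1A1, ANKRD37 and VEGFA are higher in all Medium 2 libraries than in any of Medium 1, and NEAT1, PILRB, SNHG12, SMAD7, RNF43 and COL27A1 are lower.

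The largest rise among genes chosen by the naming rule was that of DDIT4, which inhibits mTORC1 (chromosome 10, 72273924 to 72276036 in RefSeq GRCh38.p14, the build of all coordinates here). Its level was 30.1, 33.5, 42.5, 41.6 and 55.9 CPM in Medium 1 wells C2, D2, E2, F2 and G2 and 402, 385, 254, 215 and 239 CPM in Medium 2 wells A6, B6, C6, D6 and E6, the order used below for every gene. The lowest Medium 2 library was above the highest of Medium 1, means were 40.7 ± 10 and 299 ± 87.7 CPM (SD, n = 5 each), and the log2 fold change was 2.89 (adjusted p = 8.31e-14, SE 0.24). HERPUD1 (chromosome 16, 56932142 to 56944864), which helps degrade misfolded proteins at the endoplasmic reticulum, had 83.5, 75.5, 88.2, 80.7 and 115 CPM in Medium 1 and 488, 586, 609, 514 and 537 CPM in Medium 2. The groups were far apart, with a log2 fold change of 2.63 (adjusted p = 8.26e-19, SE 0.17). DNAJB9, a co-chaperone of that compartment, went from 16.4, 10.3, 12.9, 6.11 and 6.73 CPM to 45.7, 52.4, 46.98, 49.99 and 67.2 CPM, a log2 fold change of 2.27 (adjusted p = 1.14e-09, SE 0.25). Wells F2 and G2 held its lowest values. All 3 calls held without wells C2, D2 and F2, at 2.60, 2.42 and 2.38.

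Targets of ATF4 rose in part. Of 33 tested members 16 were higher and 1 lower, 48.5% and 3.03%, beside 12.6% and 11.4% of all tested genes. The median log2 fold change was 0.46 against 0.000347 over all genes, and 10 were higher and 0 lower without wells C2, D2 and F2. DDIT3, a transcription factor that promotes cell death under lasting stress, went from 17.1, 24.2, 19.4, 23.2 and 12.4 CPM to 51.1, 68.3, 75.8, 64.04 and 72.1 CPM, a log2 fold change of 1.77 (adjusted p = 2.54e-09, SE 0.20). ATF3, a stress-induced repressor, went from 28.2, 29.9, 26.8, 23.8 and 49.7 CPM to 92.97, 137, 111, 87.1 and 152 CPM, a log2 fold change of 1.87 (adjusted p = 1.14e-09, SE 0.21), and well G2 stood above the other Medium 1 libraries. STC2, a secreted glycoprotein, rose by 1.25 (adjusted p = 2.21e-07, SE 0.17) with G2 lowest, at 53.3 CPM against 74.7 to 79.8 in the other 4 wells. CHAC1, which breaks down glutathione, rose by 1.76 (adjusted p = 5.27e-05, SE 0.32), and the serine and one-carbon enzymes MTHFD2, PSAT1 and SHMT2 by 0.73, 0.46 and 0.42. ATF4 itself was the 1 member that was lower, with a log2 fold change of -0.53 (adjusted p = 0.0245, SE 0.18). ASNS, asparagine synthetase and a usual marker of amino acid shortage, did not pass: 175, 143, 121, 163 and 91.7 CPM against 87.6, 96.8, 147, 125 and 76.9 CPM, a log2 fold change of -0.38 (adjusted p = 0.251, SE 0.24).

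Without the 3 wells 3 members of the unfolded protein response list were higher and 0 lower. With all libraries 7 of 24 were higher and 0 lower (29.2% and 0%, beside 12.6% and 11.4% of all genes, median log2 fold change 0.19). Besides HERPUD1 and DNAJB9 these were XBP1, the transcription factor that IRE1 splices, with 53.7, 48.8, 56.8, 44 and 62.7 CPM against 133, 140.5, 138, 109.5 and 117 CPM and a log2 fold change of 1.26 (adjusted p = 9.93e-10, SE 0.14), the kinase PERK (EIF2AK3, 0.94), the disulfide isomerase PDIA6 (0.66), DERL1 (0.42) and HYOU1 (0.32). The last 2 help export and fold proteins in the same compartment. PDIA6 lost its call without the 3 wells, at 0.35 (adjusted p = 0.263). Aminoacyl-tRNA synthetases, many of them ATF4 targets, had 3 of 20 higher (TARS 0.45, IARS 0.45, FARSB 0.41) and 3 lower (FARSA -0.74, NARS -0.52, AARS -0.46), shares near the 12.6% and 11.4% of all tested genes, and none called without the 3 wells. FARSA was then at -0.33 (adjusted p = 0.431), and the call of IARS was also lost without well E6, at 0.36 (adjusted p = 0.0639). When wells C2, D2 and F2 were left out, NARS, TARS and IARS did not pass (-0.47, 0.38 and 0.32, adjusted p = 0.125 to 0.367).

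The start regions of 4 of these genes are shown because they hold letters that match known stress elements. The sequences are RefSeq's, build GRCh38.p14, 250 bases before to 50 bases after the gene start, written 5′ to 3′ along the gene's strand. Capitals mark a match in each: in HERPUD1 to the second form of the ER stress element (ATTGG, any base, CCACG), in XBP1 to its first form (CCAAT and CCACG with 9 bases of any kind between), in ATF3 to TGATGNAA, the core bound by ATF4 with a C/EBP partner, and in ANKRD37 to ACGTG, the core bound by hypoxia-inducible factors.
HERPUD1 chr16:56931892-56932191 (+ strand): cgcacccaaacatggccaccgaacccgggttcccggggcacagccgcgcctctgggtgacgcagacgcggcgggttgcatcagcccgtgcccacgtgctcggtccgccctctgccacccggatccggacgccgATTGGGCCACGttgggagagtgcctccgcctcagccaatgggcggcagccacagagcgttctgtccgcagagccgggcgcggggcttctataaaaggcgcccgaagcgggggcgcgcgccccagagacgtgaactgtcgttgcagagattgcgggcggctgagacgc
XBP1 chr22:28800520-28800819 (- strand): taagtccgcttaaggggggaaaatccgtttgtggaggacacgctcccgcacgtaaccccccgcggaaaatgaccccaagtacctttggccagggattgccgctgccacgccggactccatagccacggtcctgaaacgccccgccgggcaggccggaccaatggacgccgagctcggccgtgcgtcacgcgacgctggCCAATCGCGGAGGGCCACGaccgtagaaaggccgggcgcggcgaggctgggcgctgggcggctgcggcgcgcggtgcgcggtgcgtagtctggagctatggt
ATF3 chr1:212565157-212565456 (+ strand): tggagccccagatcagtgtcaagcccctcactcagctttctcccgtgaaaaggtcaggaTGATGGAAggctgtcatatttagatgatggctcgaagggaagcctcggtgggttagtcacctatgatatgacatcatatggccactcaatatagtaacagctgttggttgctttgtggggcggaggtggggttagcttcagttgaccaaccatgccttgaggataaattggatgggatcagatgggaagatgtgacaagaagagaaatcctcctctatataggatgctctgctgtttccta
ANKRD37 chr4:185396591-185396890 (+ strand): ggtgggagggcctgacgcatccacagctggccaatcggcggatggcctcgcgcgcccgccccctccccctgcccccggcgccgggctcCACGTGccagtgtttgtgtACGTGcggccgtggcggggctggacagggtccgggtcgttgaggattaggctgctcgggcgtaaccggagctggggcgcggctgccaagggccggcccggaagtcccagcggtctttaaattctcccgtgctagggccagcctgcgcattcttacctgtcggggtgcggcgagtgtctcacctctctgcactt
Both strands were searched, and ACGTG also lies within other motifs such as the E-box CACGTG. ATF3 spans 212565407 to 212620777, and its window lies at the first of these, so other starts within the gene were not searched. Whether a marked match acts on its gene was not tested. Of the 1422 higher genes 1159 (81.5%) had a start region in the table. The HERPUD1 form was found in 3 of these (0.259%) and in 0.0549% of all 27305 regions in the table, and the XBP1 form in 2 (0.173%) and in 0.0806%. TGATGNAA was found in 1.9% of the higher genes and 3.67% of all regions, and ACGTG in 29.6% and 21.6%. A region was found for 78.6% of the lower genes and 79.6% of all tested genes, under the 80% set for such a check, so it is void for both and no share is given. All regions in the table include genes that were not tested, so nothing is read from these shares. These shares describe the letters only, in windows that are short beside most regulatory regions.

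Genes induced when growth signals fall were higher in part. In the list of FOXO and MondoA targets, 6 of 20 tested members were higher and 0 lower (30% and 0%, median 0.30). Of all tested genes 12.6% were higher and 11.4% lower. Without wells C2, D2 and F2 the list had 2 and 0. KLHL24, an adaptor of a ubiquitin ligase, went from 16.4, 10.3, 17.5, 14.7 and 25.4 CPM to 83.1, 32.5, 64.4, 53.9 and 51.02 CPM, a log2 fold change of 1.77 (adjusted p = 8.07e-07, SE 0.25), and kept its call without them (1.40). CCNG2, an unusual cyclin linked to cell cycle exit, rose by 1.22 (adjusted p = 0.000695, SE 0.27) and CDKN1B, the CDK inhibitor p27, by 0.53 (adjusted p = 0.00772, SE 0.15). TXNIP, a sensor of glucose, was listed at 0 in all 60 libraries and gives no information. Among 17 tested inhibitors of mTORC1 and growth, DDIT4 alone was higher and PRKAA2, a catalytic subunit of AMPK, alone lower, at -0.91 (adjusted p = 0.00715, SE 0.26). Each is 5.88% of the list, beside 12.6% higher and 11.4% lower among all tested genes. SESN2, which signals lack of leucine to mTORC1, did not pass, with 33.9, 33.5, 33.2, 32.4 and 25.4 CPM against 40.4, 38.4, 45.6, 39.9 and 36.4 CPM (log2 fold change 0.34, adjusted p = 0.155, SE 0.18), although no library overlapped, with G2 low. The calls of PRKAA2, CCNG2 and CDKN1B were lost without the 3 wells (-0.93, 1.16 and 0.53, adjusted p = 0.074 to 0.154).

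Among targets of hypoxia-inducible factors 9 of 26 tested members were higher and 2 lower (34.6% and 7.69%, median 0.32), and 5 and 0 without the 3 wells. Of all tested genes 12.6% were higher and 11.4% lower. ANKRD37, whose start region is shown above, went from 19.4, 30.3, 21.2, 16.5 and 16.1 CPM to 106, 108, 99.3, 71.3 and 109 CPM, a log2 fold change of 2.22 (adjusted p = 3.51e-08, SE 0.28). VEGFA, the vascular growth factor, went from 27.8, 27.1, 40.6, 23.2 and 44.5 CPM to 66.3, 125, 97.3, 102 and 155 CPM (log2 fold change 1.74, adjusted p = 3.79e-07, SE 0.24), and the repressor BHLHE40 rose by 1.55 (adjusted p = 5.78e-06, SE 0.24). All 3 were called without the 3 wells. ANGPTL4 rose by 1.48, ADM by 1.09, HILPDA by 1.08 and PLOD2 by 1.00, and the demethylase KDM4B and the sterol sensor INSIG2 were lower, at -0.69 and -0.62. DDIT4 and PFKFB3 belong to this list and to another. Without the 3 wells PFKFB3 was not called, at 0.72 (adjusted p = 0.0695).

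Of 25 glycolysis and glucose uptake genes 14 were higher and 0 lower (56% and 0%, median 0.54). Of all tested genes 12.6% were higher and 11.4% lower. Without well G2, 15 of the list were higher and 0 lower. Without wells C2, D2 and F2, 0 were called, where 122 of 11677 genes were higher in all and the list's median was 0.45. LDHA, which makes lactate, had 1466, 1323, 1349, 1693 and 2604 CPM in Medium 1 and 3108, 3567, 3613, 2700.0 and 3952 CPM in Medium 2, a log2 fold change of 1.01 (adjusted p = 4.36e-05, SE 0.18). Its value in G2 stood near the lowest Medium 2 library. ENO1, enolase, overlapped through the same well, with 1348, 1346, 1499, 1825 and 2645 CPM against 3108, 3387, 3034, 2356 and 3099 CPM and a log2 fold change of 0.79 (adjusted p = 0.000107, SE 0.15), which was 0.53 (adjusted p = 0.132) without the 3 wells. TPI1 and PFKFB3, which makes the activator of phosphofructokinase, rose by 0.61 and 0.90, and ALDOC, GPI, PKM and GAPDH by 1.09, 0.62, 0.49 and 0.54. PGAM4, a near-identical copy of a phosphoglycerate mutase gene and so uncertain in its counts, had 9.15, 7.12, 29.5, 13.4 and 49.2 CPM against 76.2, 94.8, 117, 64.04 and 129 CPM and a log2 fold change of 2.18 (adjusted p = 5.86e-05, SE 0.40). E2 and G2 were highest in Medium 1, and without the other 3 wells it was 1.28 (adjusted p = 0.134). Without the 3 wells LDHA, PFKFB3 and TPI1 did not pass (0.77, 0.72 and 0.45, adjusted p = 0.0691 to 0.138).

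The genes that answer heme itself did not move together between media. Of 38 tested genes of heme and iron handling 8 were higher in Medium 2 and 4 lower (21.1% and 10.5%, median 0.20), beside 12.6% and 11.4% of all genes. HMOX1, which breaks heme down, was at 54.1, 55.5, 44.3, 47.1 and 30.04 CPM in Medium 1 and 40.4, 49.05, 46.98, 49.99 and 44.5 CPM in Medium 2. The groups overlapped throughout, with a difference of -0.0053 on the log2 scale (adjusted p = 0.988, 95% interval -0.4 to 0.39). FTH1 and FTL, the ferritin chains, had 1921 ± 197 against 2253 ± 174 CPM and 666 ± 61.8 against 641 ± 38.3 CPM, with log2 fold changes of 0.23 (adjusted p = 0.0831, SE 0.1) and -0.054 (adjusted p = 0.783, SE 0.12). BACH1, the heme-sensing repressor, was at 12.6, 11.04, 14.3, 20.8 and 25.9 CPM and 29.7, 29.2, 26.8, 16.9 and 20.2 CPM (log2 fold change 0.56, adjusted p = 0.107, SE 0.26), and passed only with well G2 left out, at 0.75 (adjusted p = 0.0337). SLC48A1, which moves heme out of endosomes and lysosomes, was at -0.58 (adjusted p = 0.0731, SE 0.24) and passed only without G2 or without D6.

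On the supply side, ALAS1, the first enzyme of heme synthesis, went from 32.02, 46.3, 46.6, 39.7 and 62.7 CPM to 63.2, 84.8, 81.2, 69.1 and 72.9 CPM, a log2 fold change of 0.71 (adjusted p = 0.00226, SE 0.18), with G2 just under the lowest Medium 2 library. NCOA4, the receptor that sends ferritin to the lysosome, went from 104, 102, 115, 95.95 and 149 CPM to 191, 195, 211, 179 and 222 CPM (log2 fold change 0.82, adjusted p = 3.34e-05, SE 0.14). Iron-sulfur scaffold ISCU rose by 0.80 (adjusted p = 0.0186, SE 0.26), the metal importers SLC39A8 and SLC11A2 by 0.68 and 0.48 and the heme chaperone PGRMC1 by 0.37. TFRC, the transferrin receptor, had 274, 247, 264, 194 and 263 CPM against 318, 303, 324, 278 and 317 CPM and a log2 fold change of 0.31 (adjusted p = 0.0289, SE 0.11), a call lost in 5 of the 10 fits that left out 1 library (D2, F2, A6, C6 or E6). When wells C2, D2 and F2 were left out, NCOA4, ALAS1 and TFRC did not pass (0.59, 0.44 and 0.22, adjusted p = 0.0777 to 0.45).

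The 4 lower genes include transporters of iron, porphyrin and heme. SLC25A37, the mitochondrial iron importer mitoferrin 1, fell from 118, 88.3, 90.5, 98.4 and 105 CPM to 52.6, 64.3, 46.3, 70.8 and 55.9 CPM, a log2 fold change of -0.78 (adjusted p = 3.82e-06, SE 0.12). It was the 1 gene of the list called without wells C2, D2 and F2 (-0.75). ABCB6, a porphyrin transporter, fell from 30.9, 22.4, 12.9, 15.9 and 13.98 CPM to 5.33, 3.98, 9.4, 6.18 and 6.48 CPM (log2 fold change -1.62, adjusted p = 6.99e-05, SE 0.30), with C2 highest. The heme exporter FLVCR1 and biliverdin reductase B (BLVRB) were at -0.64 (adjusted p = 0.00728, SE 0.18) and -0.50 (adjusted p = 0.0292, SE 0.17). Without the 3 wells ALAS1 was 0.44 (adjusted p = 0.324), NCOA4 0.59 (adjusted p = 0.0777), ABCB6 -1.10 (adjusted p = 0.096) and HMOX1 0.31 (adjusted p = 0.602).

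Of 23 tested NRF2 targets 10 were higher and 0 lower (43.5% and 0%, median 0.18), and 1 and 0 without the 3 wells. Of all tested genes 12.6% were higher and 11.4% lower. TXNRD1, thioredoxin reductase, went from 274, 309, 436, 272 and 503 CPM to 738, 678, 657, 696 and 852 CPM, a log2 fold change of 1.01 (adjusted p = 5.7e-05, SE 0.18). E2 and G2 were the 2 highest Medium 1 libraries, and without the other 3 wells it was 0.62 (adjusted p = 0.151). The small MAF protein MAFG, a partner of NRF2, went from 112, 97.9, 132, 108 and 109 CPM to 172, 179.6, 202, 221 and 198 CPM (log2 fold change 0.80, adjusted p = 2.08e-07, SE 0.11) and was the member called without them (0.69). The autophagy receptor SQSTM1 rose by 0.69 (adjusted p = 0.000168, SE 0.13), OSGIN1 by 1.23, glutathione reductase GSR by 0.71, NQO1 by 0.44 and peroxiredoxin PRDX1 by 0.33. NFE2L2, the gene of NRF2, rose by 0.53 (adjusted p = 0.0191, SE 0.17), a call lost without C2 or without E6. NFE2L2 and NQO1 also stand in the list of aryl hydrocarbon receptor targets. The calls of SQSTM1 and NFE2L2 were lost without the 3 wells (0.46 and 0.46, adjusted p = 0.149 and 0.296).

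Metallothioneins bind zinc and copper and are induced by metals and oxidants. Higher members made up 57.1% of those tested, beside 12.6% of all tested genes. Of 7 tested members 4 were higher, MT2A by 0.34 (adjusted p = 0.00815, SE 0.097), MT1E by 0.54 (adjusted p = 0.00383, SE 0.14), MT1X by 0.59 (adjusted p = 0.0249, SE 0.20) and MT1G by 1.80 (adjusted p = 0.0315, SE 0.63), and 0 were called without the 3 wells. MT1G had 4.57, 2.49, 4.15, 0.611 and 21.2 CPM in Medium 1 and 14.5, 35.8, 40.9, 19.7 and 0 CPM in Medium 2, so the groups overlapped at both ends, and its call was lost in 6 of the 10 fits that left out 1 library and with DESeq2 (1.74, adjusted p = 0.0711). MT1X lost its call in 4 of the 10. These genes are near-identical copies, and how their reads were shared out is not given in the sources used here. Among the genes not called without the 3 wells were MT1E, MT2A, MT1X and MT1G (0.32, 0.27, 0.47 and 0.84, adjusted p = 0.282 to 0.634).

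**Figure D3:**
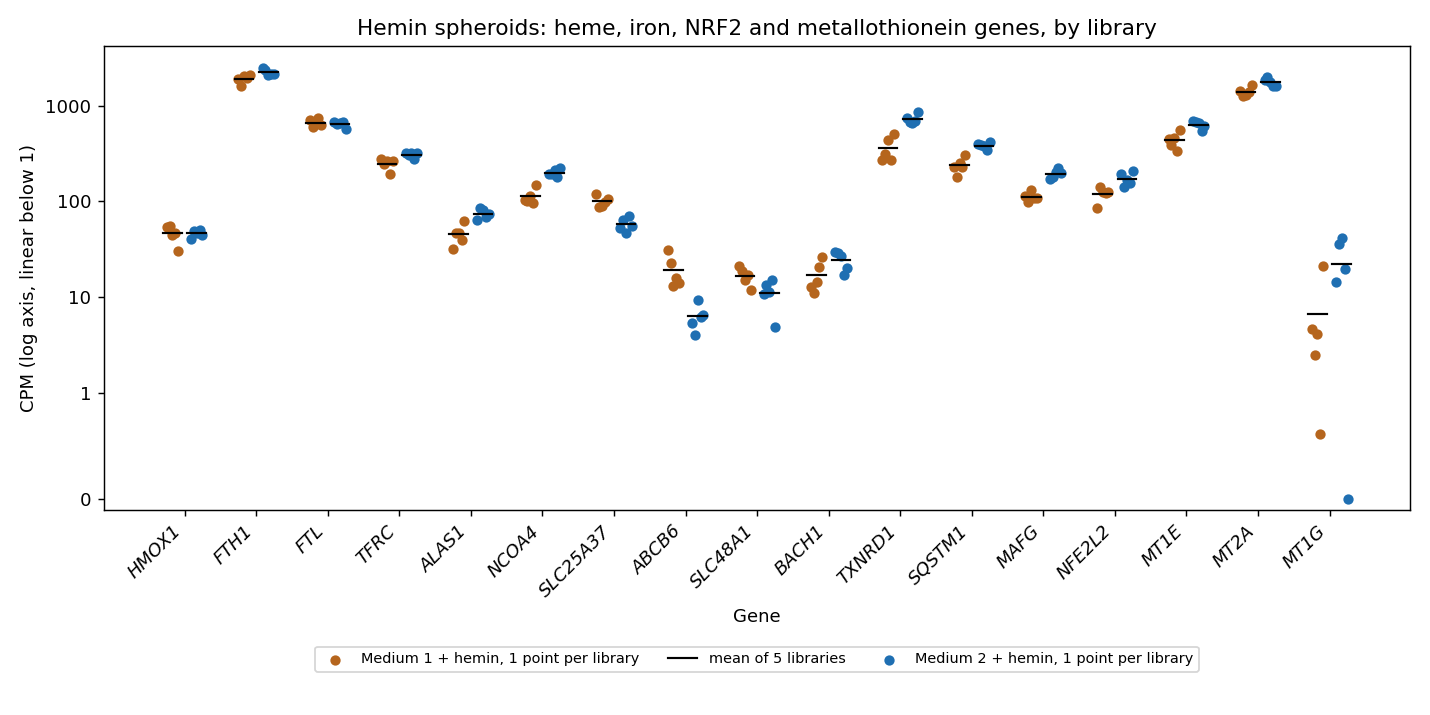
CPM of 17 genes of heme and iron handling, NRF2 response and metallothioneins (vertical axis, logarithmic above 1 and linear below) in each hemin library, with bars at group means. HMOX1, FTH1 and FTL overlap between media, ALAS1, NCOA4, TXNRD1, SQSTM1 and MAFG are higher and SLC25A37 and ABCB6 lower in all Medium 2 libraries, and MT1G is scattered in both.

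The aryl hydrocarbon receptor, which binds planar ligands including tryptophan products, had 7 of 11 tested targets higher and 0 lower (63.6% and 0%, median 0.53). Of all tested genes 12.6% were higher and 11.4% lower. Without wells C2, D2 and F2 the list had 4 and 0. CYP1A1, its classic target (chromosome 15), went from 3.05, 2.49, 2.77, 1.83 and 3.11 CPM to 9.91, 8.62, 13.4, 18.5 and 12.96 CPM, a log2 fold change of 2.23 (adjusted p = 6.67e-08, SE 0.29). CYP1B1 went from 9.91, 11.04, 11.1, 11.6 and 10.4 CPM to 30.5, 20.6, 26.8, 32.6 and 23.5 CPM (log2 fold change 1.31, adjusted p = 0.000274, SE 0.27). Both cytochromes were called without the 3 wells, at 2.10 and 1.32. The receptor's repressor AHRR rose by 1.02 (adjusted p = 0.0261, SE 0.35). TIPARP, which inhibits the receptor by ADP-ribosylation, rose by 1.31 (adjusted p = 2.04e-05, SE 0.22) and was 0.82 (adjusted p = 0.0959) without the 3 wells. STC2, NFE2L2 and NQO1, given above with ATF4 and NRF2 targets, also stand in this list.

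Interferon-stimulated genes were higher for 12 of 29 tested members and lower for 2 (41.4% and 6.9%, median 0.33), and for 6 and 0 without the 3 wells. Of all tested genes 12.6% were higher and 11.4% lower. IFIT1, which binds foreign RNA caps, went from 259.6, 235, 198, 268 and 253 CPM to 421, 449, 479.8, 378 and 464 CPM, a log2 fold change of 0.85 (adjusted p = 7.82e-08, SE 0.11). Its relatives IFIT2 and IFIT3 rose by 1.03 (adjusted p = 2.42e-06, SE 0.15) and 0.96 (adjusted p = 6.19e-08, SE 0.12). OASL rose by 1.04 (adjusted p = 0.000213, SE 0.21) with E6 within the Medium 1 range, and ISG20 by 1.36, while the transcription factor STAT2 was lower (-0.95). Among NF-kB genes 7 of 18 were higher and 1 lower (38.9% and 5.56%, median 0.15), and 1 and 1 without the 3 wells. The urokinase receptor PLAUR went from 219, 179.8, 261, 140.0 and 312 CPM to 414, 497, 525, 434 and 639 CPM (log2 fold change 1.17, adjusted p = 4.34e-06, SE 0.18). The chemokines CXCL1, CXCL2 and IL8 (CXCL8) rose by 1.13, 1.34 and 1.02, the last with overlap at well A6, and TNFAIP3, a brake on NF-kB, by 1.05 (adjusted p = 0.00699, SE 0.30), which was 0.44 (adjusted p = 0.576) without the 3 wells. Without the 3 wells CXCL1 and IL8 did not pass (0.88 and 0.89, adjusted p = 0.184 and 0.175).

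Immediate early genes, which answer growth factors and stress within minutes, were higher for 9 of 28 tested members and lower for 1 (32.1% and 3.57%, median 0.63). Of all tested genes 12.6% were higher and 11.4% lower. Without the 3 wells the list had 5 and 0. JUN went from 40.4, 41.3, 46.6, 25.7 and 44.02 CPM to 102, 84.8, 73.2, 71.3 and 69.6 CPM, a log2 fold change of 1.01 (adjusted p = 1.62e-05, SE 0.17), the survival factor MCL1 rose by 0.79 (adjusted p = 4e-06, SE 0.12) and KLF6 by 0.67 (adjusted p = 6.25e-06, SE 0.11). EGR1 had 120.1, 192, 148, 115 and 126 CPM against 259.9, 234, 181, 188 and 198 CPM (log2 fold change 0.59, adjusted p = 0.0051, SE 0.16), with D2 within the Medium 2 range, and MYC did not pass (log2 fold change 0.64, adjusted p = 0.134, SE 0.32) with F2 lowest at 17.7 CPM. Genes that damp Ras-ERK signalling were higher for 4 of 19 and lower for 1 (21.1% and 5.26%, median 0.062), with 0 called without the 3 wells. The ERK phosphatase DUSP6 rose by 0.74 (adjusted p = 0.000445, SE 0.16) and the EGFR inhibitor ERRFI1 by 0.70 (adjusted p = 0.000737, SE 0.16), then 0.36 (adjusted p = 0.362). SPRY1, an inhibitor of receptor signalling, was at a few CPM, 1.14, 3.92, 3.23, 1.83 and 0.518 against 11.4, 12.6, 8.72, 4.49 and 6.48 (log2 fold change 1.95, adjusted p = 0.00295, SE 0.50), and SPRED1 at 0.36 (adjusted p = 0.0199, SE 0.12) lost its call without F2, A6 or D6. When wells C2, D2 and F2 were left out, DUSP6, SPRY1, SPRED1 and EGR1 did not pass (0.50, 2.13, 0.25 and 0.63, adjusted p = 0.0931 to 0.441).

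Targets of p53 were higher for 6 of 27 tested members and lower for 2 (22.2% and 7.41%, median 0.34). Of all tested genes 12.6% were higher and 11.4% lower. Without the 3 wells the list had 3 and 0. The CDK inhibitor CDKN1A (p21) went from 195, 159.9, 133, 147 and 206 CPM to 277, 283, 315, 256 and 338 CPM, a log2 fold change of 0.80 (adjusted p = 3.4e-06, SE 0.12). MDM2, the ligase that degrades p53, rose by 0.63 (adjusted p = 4.04e-05, SE 0.11), the death factor BBC3 by 0.69 (adjusted p = 0.000321, SE 0.14), and the stress cytokine GDF15 by 0.69 (adjusted p = 0.000578, SE 0.15). GDF15 had 295, 258, 214, 192 and 123 CPM in Medium 1 with G2 lowest, against 395, 309, 320.1, 370.2 and 357 CPM in Medium 2, and was 1.05 without the 3 wells. CDKN1A and GDF15 are also in the ATF4 list. BBC3 was not called without the 3 wells, at 0.62 (adjusted p = 0.0665).

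Among nuclear RNAs and their binding proteins, NEAT1, the RNA that builds paraspeckles, had 88.8, 53.4, 51.2, 58.7 and 27.4 CPM in Medium 1 and 4.57, 6.63, 6.04, 7.86 and 1.62 CPM in Medium 2, a log2 fold change of -3.33 (adjusted p = 1.71e-11, SE 0.32). Well G2 was lowest in Medium 1 and still above all Medium 2 libraries. The RNA was labelled cytoplasmic, and how levels of nuclear RNAs in it relate to those in the nucleus was not tested. SNHG12, a host of small nucleolar RNAs, went from 57.6, 36.7, 22.6, 26.9 and 33.1 CPM to 6.86, 5.97, 7.38, 3.93 and 4.05 CPM (log2 fold change -2.66, adjusted p = 1.71e-11, SE 0.26), and LINC00342, a long noncoding RNA, from 18.7, 19.6, 12, 9.17 and 6.73 CPM to 3.05, 0.663, 2.01, 2.25 and 0 CPM (log2 fold change -3.00, adjusted p = 5.72e-06, SE 0.47). MALAT1, SNHG1 and TUG1 were lower too, at -1.21, -1.32 and -0.80, and the speckle protein gene PNISR at -1.32 (adjusted p = 1.05e-08, SE 0.16). Of all tested genes 12.6% were higher and 11.4% lower. In the list as a whole 11 of 36 tested members were higher and 9 lower (30.6% and 25%, median -0.052), and 2 and 7 without the 3 wells. The higher ones code for proteins that splice or bind RNA, apart from the noncoding ZFAS1: the splicing kinase CLK1 went from 24.8, 22.1, 26.3, 26.9 and 20.2 CPM to 60.2, 57, 77.8, 74.2 and 83.4 CPM (log2 fold change 1.55, adjusted p = 1.06e-08, SE 0.19), and CLK4 rose by 1.36, SRSF1 by 0.62 and SRSF2 by 0.54.

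Transcripts of segmentally duplicated families were lower for 13 of 22 tested members and higher for 1 (59.1% and 4.55%, median -1.23). Of all tested genes 11.4% were lower and 12.6% higher. Without wells C2, D2 and F2 the list had 9 lower and 1 higher. PILRB, which shares sequence with a readthrough transcript, went from 39.6, 34.2, 26.8, 31.2 and 22.8 CPM to 5.33, 1.99, 4.7, 2.25 and 4.05 CPM, a log2 fold change of -3.10 (adjusted p = 1.43e-10, SE 0.32). GOLGA8B went from 17.5, 40.2, 18, 31.2 and 33.7 CPM to 3.05, 5.97, 6.71, 4.49 and 2.43 CPM (log2 fold change -2.59, adjusted p = 4.66e-07, SE 0.36), its neighbour in sequence GOLGA8A was at -2.31 (adjusted p = 2.04e-05, SE 0.39), NPIPB3 at -2.58 (adjusted p = 8.26e-06, SE 0.41) and NBPF15 at -1.25 (adjusted p = 3.41e-06, SE 0.19). Reads from such copies can be assigned to the wrong member, so single members are uncertain. Lower as well were MAN2A2, a Golgi mannosidase (log2 fold change -2.24, adjusted p = 0.000164, SE 0.44), the poly(A)-binding protein gene PABPC1L (log2 fold change -2.22, adjusted p = 5.69e-05, SE 0.40) and the scaffold gene MPP3 (log2 fold change -2.13, adjusted p = 0.00166, SE 0.51, then -1.65 (adjusted p = 0.147)), each at few CPM in Medium 2.

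Among signalling inhibitors, SMAD7, which blocks TGF-beta receptors, fell from 10.3, 8.55, 11.5, 13.4 and 18.6 CPM to 4.57, 2.65, 2.01, 2.25 and 0 CPM, a log2 fold change of -2.38 (adjusted p = 3.92e-05, SE 0.42), and -2.67 without the 3 wells. Its list held 3 higher and 5 lower of 19 tested members (median -0.27), and 0 and 2 without them. The shares were 15.8% and 26.3%, beside 12.6% and 11.4% of all tested genes. The corepressor TGIF1 rose by 1.07 (adjusted p = 0.000204, SE 0.21) with G2 at 50.8 CPM against 25.3 to 32.3 in the other Medium 1 wells, and the ligase SMURF2 was at -0.45 (adjusted p = 0.00492, SE 0.12). RNF43, which removes Wnt receptors, fell from 32.4, 32.4, 24.5, 41.6 and 21.8 CPM to 7.62, 8.62, 11.4, 11.8 and 9.72 CPM (log2 fold change -1.61, adjusted p = 2.82e-07, SE 0.22). The Wnt list held 2 higher and 2 lower of 18 (median -0.086), a share near the background, and 0 and 1 without the 3 wells. The Dishevelled inhibitor NKD2 was at -1.04 (adjusted p = 0.0166, SE 0.33), the Wnt antagonist DKK1 at 0.42 (adjusted p = 0.0402, SE 0.16) and CD44 at 0.41 (adjusted p = 0.0174, SE 0.13). Their calls were lost in 2, 8 and 5 of the 10 fits without 1 library, and DKK1 was 0.10 (adjusted p = 0.844) without the 3 wells. LFNG, which modifies Notch, fell from 15.6, 16.7, 6.0, 12.2 and 15.5 CPM to 0.762, 2.65, 3.36, 2.25 and 1.62 CPM (log2 fold change -2.58, adjusted p = 7e-06, SE 0.41). Among the genes not called without the 3 wells were NKD2, CD44, TGIF1 and SMURF2 (-0.92, 0.27, 0.73 and -0.53, adjusted p = 0.0524 to 0.443).

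Matrix genes were higher for 2 of 25 tested members and lower for 3 (median 0.05), close to the background, and for 0 and 3 without the 3 wells. The laminin chain LAMA5 fell from 32.8, 38.1, 39.2, 22.6 and 44.02 CPM to 16.8, 7.95, 14.8, 13.5 and 6.48 CPM, a log2 fold change of -1.56 (adjusted p = 4e-06, SE 0.24). The fibrillar collagen COL27A1 fell from 14.1, 12.1, 12.9, 14.1 and 15.5 CPM to 3.81, 5.3, 0.671, 3.93 and 1.62 CPM (log2 fold change -2.11, adjusted p = 4.79e-05, SE 0.38). LAMB1 was at -0.90 (adjusted p = 0.00163, SE 0.22), and the dystroglycan gene DAG1 rose by 0.88 (adjusted p = 0.000626, SE 0.19), then 0.54 (adjusted p = 0.238). COL1A1, a fibroblast marker at up to 12.1 CPM, was at -1.27 (adjusted p = 0.0191, SE 0.41) and lost its call without D2 or B6. COL1A1 was not called without the 3 wells, at -0.98 (adjusted p = 0.361).

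Cholesterol synthesis had 8 of 25 genes higher and 3 lower (32% and 12%, median 0.20), and 2 and 1 without the 3 wells. Of all tested genes 12.6% were higher and 11.4% lower. MSMO1, a sterol oxidase, went from 210.4, 197, 212, 221 and 218 CPM to 328, 337, 338, 322 and 399 CPM, a log2 fold change of 0.70 (adjusted p = 1.07e-06, SE 0.10). CYP51A1, a sterol demethylase, rose by 0.63 (adjusted p = 5.7e-05, SE 0.11), then 0.40 (adjusted p = 0.13). HMGCS1, an early enzyme of the pathway, did not pass (log2 fold change 0.20, adjusted p = 0.196, SE 0.11), and SQLE and EBP were lower, at -0.41 and -0.57. Fatty acid synthesis had 3 of 16 higher and 2 lower (18.8% and 12.5%, median 0.044). These shares are near those of all tested genes, and 0 members were called without the 3 wells. ACSL1, which activates fatty acids, rose by 1.27 (adjusted p = 0.00262, SE 0.32), the lipogenic regulator SREBF1 by 1.09 (adjusted p = 0.00125, SE 0.25) and ACLY by 0.49 (adjusted p = 0.000992, SE 0.11), and FADS1 was at -0.47 (adjusted p = 0.00264, SE 0.12). SREBF1 and ACLY were then 0.67 (adjusted p = 0.284) and 0.29 (adjusted p = 0.282). Autophagy and lysosome genes were higher for 8 of 27 and lower for 3 (29.6% and 11.1%, median 0.13), with 0 called without the 3 wells. ATG16L1 rose by 1.17 (adjusted p = 0.00405, SE 0.31), the proton pump subunit ATP6V1H by 0.60 (adjusted p = 0.000186, SE 0.12), then 0.38 (adjusted p = 0.174), and ATG12 by 0.36 (adjusted p = 0.00817, SE 0.10), lost without E6, while ULK1, ATG2A and GABARAPL1 were lower (-0.73, -1.07 and -0.57). When wells C2, D2 and F2 were left out, ACSL1, FADS1, ATG16L1 and ATG12 did not pass (0.88, -0.50, 0.86 and 0.36, adjusted p = 0.0692 to 0.277).

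Of 80 cytosolic ribosomal protein genes 38 were higher and 0 lower (47.5% and 0%, median 0.27). Of all tested genes 12.6% were higher and 11.4% lower. These shares were not adjusted for level, and the median level was 83 CPM for all genes called higher and 29.6 for all tested. Without well G2 the list had 40 higher and 1 lower, and without the 3 wells 5 and 0. The rises were small, from 0.26 for RPL11 to 0.70 for RPL38, which was 0.46 (adjusted p = 0.0979) without them. RPL15 had 1591, 1352, 1545, 1555 and 1826 CPM in Medium 1 and 2080.0, 2653, 2518, 2114 and 2840.0 CPM in Medium 2, a log2 fold change of 0.63 (adjusted p = 4.51e-06, SE 0.098). These genes share sequence with many pseudogenes, and their total share of counts, given above, barely overlapped between the media. Of 41 ribosome biogenesis genes 5 were higher and 11 lower (median -0.14), and 3 and 0 without the 3 wells. The shares were 12.2% and 26.8%, beside 12.6% and 11.4% of all tested genes. The helicase gene DDX10 fell from 236, 189, 162, 161 and 144 CPM to 110.5, 91.5, 100, 106 and 64.8 CPM (log2 fold change -0.92, adjusted p = 0.000168, SE 0.18), NOP58, a core protein of small nucleolar particles, was at -0.85 (adjusted p = 0.0018, SE 0.21) and UTP3 at -0.73 (adjusted p = 0.000549, SE 0.16), and the latter pair was -0.48 (adjusted p = 0.33) and -0.43 (adjusted p = 0.259) without them. POLR1B, of RNA polymerase I, rose by 0.59 (adjusted p = 0.00233, SE 0.15). Oxidative phosphorylation had 13 of 58 higher and 2 lower (22.4% and 3.45%, median 0.079), and 3 and 0 without the 3 wells. The ATP synthase subunit ATP5G3 had 1076, 911, 1177, 995 and 1226 CPM against 1571, 1743, 1966, 1662 and 2111 CPM (log2 fold change 0.75, adjusted p = 2.37e-07, SE 0.10), and the complex I subunit NDUFB9 rose by 0.49 (adjusted p = 9.38e-05, SE 0.092). The calls of DDX10 and POLR1B were lost without the 3 wells (-0.70 and 0.44, adjusted p = 0.0788 and 0.238).

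Cell cycle genes were called in both directions. DNA replication had 10 of 37 members higher and 2 lower (27% and 5.41%, median 0.054), and 2 and 0 without the 3 wells. Of all tested genes 12.6% were higher and 11.4% lower. The helicase subunit MCM2 went from 165, 122, 147, 80.1 and 123 CPM to 178, 255, 271, 252 and 289.9 CPM, a log2 fold change of 0.96 (adjusted p = 7.12e-07, SE 0.14), RRM2, which makes deoxynucleotides, rose by 0.44 (adjusted p = 4.25e-05, SE 0.079) and RFC5 by 0.63 (adjusted p = 0.000244, SE 0.13). Mitosis had 9 of 44 higher and 10 lower (20.5% and 22.7%, median -0.081), and 1 and 1 without the 3 wells. The kinesin CENPE fell from 75.8, 108, 94.2, 86.2 and 88.5 CPM to 48.01, 41.8, 40.3, 49.99 and 34.8 CPM (log2 fold change -1.07, adjusted p = 4e-06, SE 0.16), with CENPF, NDC80 and MKI67 at -0.83, -0.78 and -0.67, while BIRC5 (survivin) rose by 0.67 (adjusted p = 3.54e-05, SE 0.12), UBE2C by 0.79 (adjusted p = 0.000149, SE 0.15) and KIF2C by 0.87 (adjusted p = 0.000332, SE 0.18), then 0.53 (adjusted p = 0.228). Heat shock genes were lower for 8 of 22 and higher for 3 (36.4% and 13.6%, median -0.18), and for 1 and 2 without the 3 wells. HSPH1 fell from 321, 391.7, 381, 480.4 and 381 CPM to 272, 213, 274, 252 and 214 CPM (log2 fold change -0.67, adjusted p = 0.000314, SE 0.14), the HSP90 cofactors CHORDC1 and AHSA1 were at -0.63 (adjusted p = 0.000142, SE 0.12) and -0.74 (adjusted p = 6.52e-05, SE 0.14), and the co-chaperone DNAJB1 rose by 0.67 (adjusted p = 0.000243, SE 0.14). Among the genes not called without the 3 wells were RFC5, UBE2C, AHSA1 and CHORDC1 (0.48, 0.58, -0.49 and -0.43, adjusted p = 0.103 to 0.125).

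**Figure D4:**
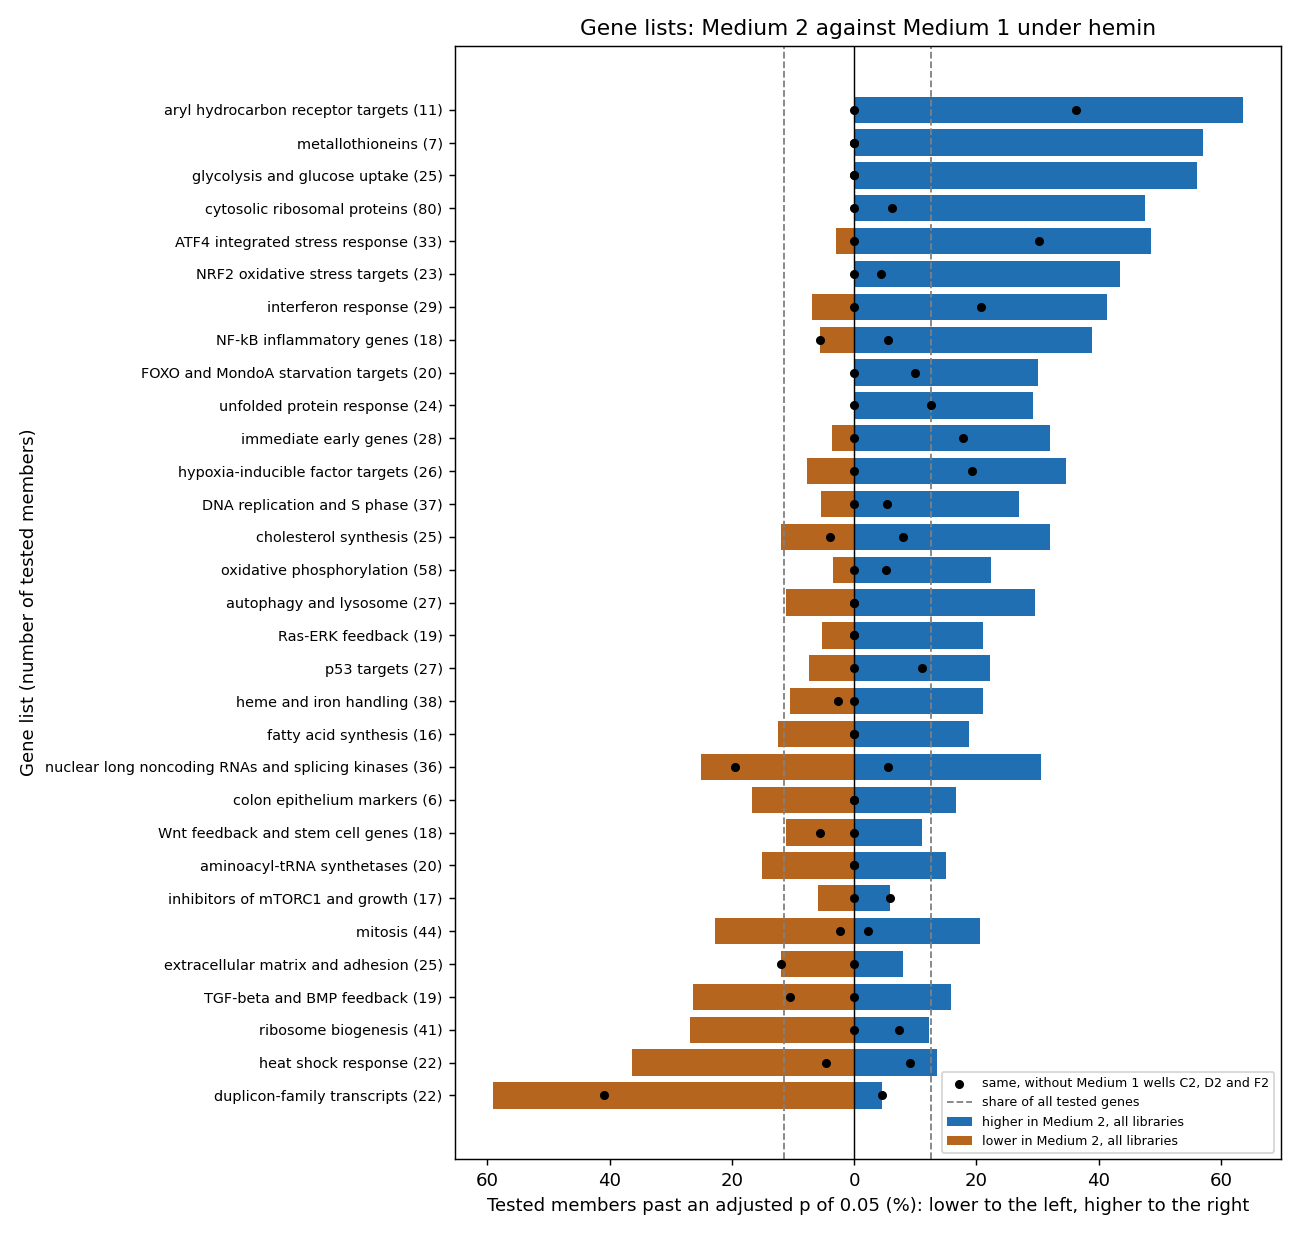
For each gene list with at least 5 tested members, the percentage of tested members higher (right) or lower (left) in Medium 2 under hemin at an adjusted p under 0.05, with the share of all tested genes as dashed lines and, as points, the percentages without Medium 1 wells C2, D2 and F2. Aryl hydrocarbon receptor and ATF4 targets keep members on the right and duplicon-family transcripts on the left without these wells, where far fewer genes were called in all (122 higher and 151 lower).

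The same medium contrast in untreated spheroids, which shares no library with that under hemin, called 304 genes higher (2.69%) and 417 lower (3.69%), 6.38% in all. Of these, 208 genes were higher in both contrasts, 68.4% of the untreated list and 14.6% of the hemin list, and 236 were lower in both, 56.6% and 18.4%. No gene was called in opposite directions. Of the genes called under hemin alone, 83.2% of the higher and 82.3% of the lower ones had the same sign without hemin. Their median log2 fold changes were 0.604 under hemin against 0.189, and -0.702 against -0.2. These genes were picked for passing with hemin and not without. That choice by itself makes the medians larger under hemin, so nothing is read from them. Over 11298 genes, which are not independent replicates, the log2 fold changes had a Pearson r of 0.532 and a Spearman rho of 0.473, and their SD was 0.563 under hemin and 0.448 without. In the other treatments the medium contrast called 510 genes higher (4.51%) and 607 lower (5.37%) with butyrate, 9.89% in all. It called 421 (3.73%) and 484 (4.28%) with kynurenine, 8.01% in all, and 486 (4.3%) and 481 (4.26%) with kynurenic acid, 8.56% in all. With hemin plus kynurenine it called 906 (8.02%) and 940 (8.32%), 16.3% in all. Under hemin alone it was 23.9%, and 122 and 151 genes without the 3 wells.

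**Figure D5:**
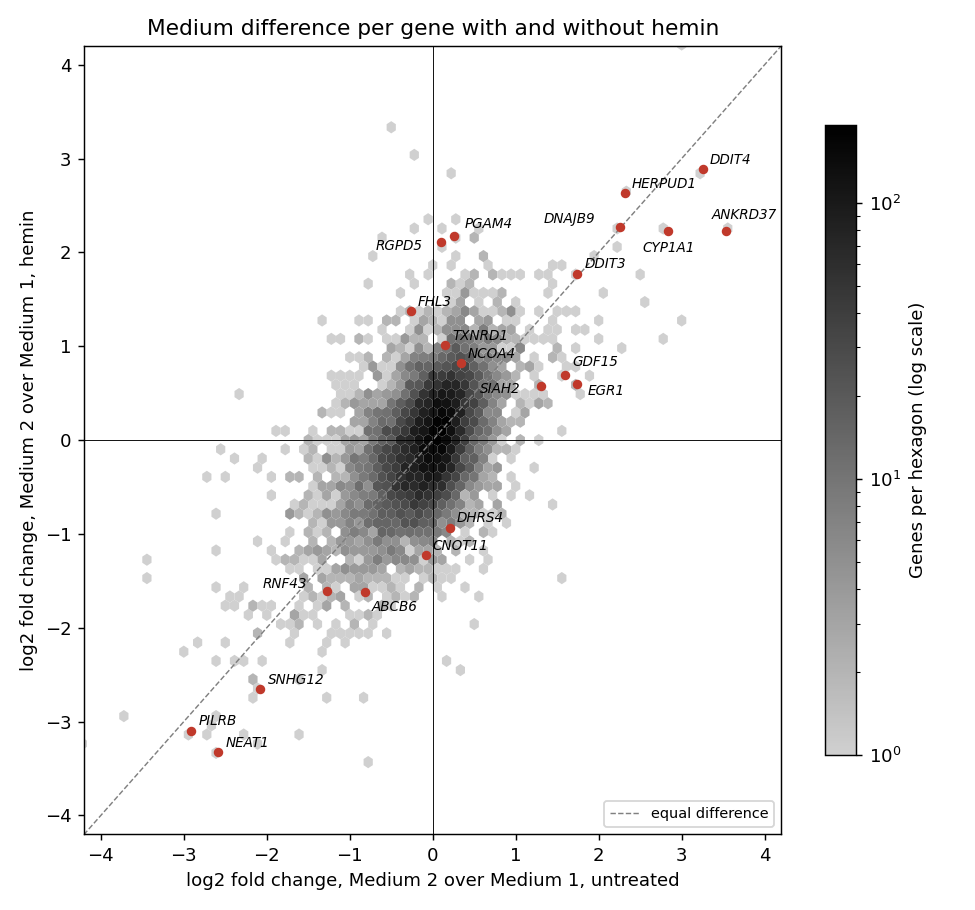
Log2 fold change of Medium 2 over Medium 1 for each of 11298 genes in untreated spheroids (horizontal axis) and in spheroids with hemin (vertical axis), shaded by the number of genes per hexagon, with named genes in red and the line of equal differences dashed. DDIT4, HERPUD1, DDIT3 and NEAT1 lie far out on both axes, whereas PGAM4, RGPD5, FHL3 and TXNRD1 lie near 0 without hemin.

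Whether a gene's medium difference under hemin departed from that in untreated spheroids was tested as an interaction. By edgeR's quasi-likelihood test no gene of 11298 passed (0%), 1508 had an unadjusted p under 0.05, and DESeq2 called 2. The smallest adjusted p belonged to EGR1, a growth factor response gene: 0.59 with hemin against 1.73 without, a difference of -1.14 (SE 0.23, adjusted p = 0.0624). It passed in 10 of 27 alternatives, among them plate row as a covariate (adjusted p = 0.00281), no filter on low counts (adjusted p = 0.00645) and DESeq2 (adjusted p = 0.00988). Next were FHL3, a LIM domain protein, 1.37 against -0.27, and the ubiquitin ligase SIAH2, 0.58 against 1.31, both with an adjusted p of 0.158. FHL3 had 8.39, 7.12, 12, 10.4 and 17.1 CPM in Medium 1 and 20.6, 31.8, 31.5, 25.8 and 30.8 CPM in Medium 2, without overlap, and SIAH2 45.4, 47, 56.8, 47.7 and 40.4 CPM and 67.1, 65.6, 64.4, 79.2 and 78.5 CPM. Without well G2 100 genes passed, among them FHL3 (1.83, adjusted p = 0.0268). Side by side, DDIT4 was 2.89 with hemin and 3.25 without, HERPUD1 2.63 and 2.32, ANKRD37 2.22 and 3.53, NEAT1 -3.33 and -2.58, TXNRD1 1.01 and 0.15, LDHA 1.01 and 0.46, NCOA4 0.82 and 0.34, and HMOX1 -0.0053 and 0.46. A missed threshold does not show that these responses are alike.

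Against the mean medium difference of the 5 other treatments, 115 genes had a higher value under hemin (1.02%) and 130 a lower one (1.15%), 2.17% in all. FHL3 was 1.37 under hemin and -0.27, 0.064, -0.01, -0.24 and -0.46 in untreated, butyrate, kynurenine, kynurenic acid and hemin plus kynurenine spheroids, a difference of 1.56 (SE 0.29, adjusted p = 0.0114). TNRC6C, of the microRNA silencing complex, was 1.17 against 0.044, 0.40, 0.16, -0.12 and -0.064, a difference of 1.09 (SE 0.24, adjusted p = 0.0382), and CDKN2A, which codes for p16 and ARF, differed by 0.82 (SE 0.19, adjusted p = 0.0382). RGPD5, a near-copy of RANBP2 with uncertain counts, differed by 2.31 (SE 0.51, adjusted p = 0.0382), ARHGAP12 by 0.69 (SE 0.15, adjusted p = 0.0382) and the mitotic kinesin KIF23 by 0.76 (SE 0.18, adjusted p = 0.0433). On the lower side CNOT11, of the deadenylase complex, was -1.23 against -0.087, -0.55, -0.052, 0.029 and 0.046, a difference of -1.11 (SE 0.24, adjusted p = 0.0382). The dehydrogenase DHRS4, which has near-identical neighbours, differed by -1.37 (SE 0.30, adjusted p = 0.0382), the corepressor NACC1 by -1.12 (SE 0.22, adjusted p = 0.032), POLR3A of RNA polymerase III by -0.81 (SE 0.18, adjusted p = 0.0382), SNRNP48 of the minor spliceosome by -0.80 (SE 0.18, adjusted p = 0.0382) and the phosphatase SSU72 by -0.78 (SE 0.17, adjusted p = 0.0382). With plate row as a covariate 1 gene was higher and 0 lower, and of these 12 genes FHL3 kept its call (adjusted p = 0.0431) and 11 lost it (adjusted p = 0.0878 to 0.102). Each of the 12 calls was lost in 4 to 7 of the 10 fits without 1 hemin library, no gene passed without C2, D2, B6 or C6, and 643 and 739 passed without G2. Without C2, D2 and F2 together none passed. These wells were picked for lying far from the untreated Medium 1 libraries. Leaving them out favours small differences by itself, so nothing about hemin is read from that fit.

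Hemin against no treatment within each medium shares its libraries with the contrasts above and is given as values only. In Medium 1, 15 genes passed (0.133%), 5 higher (0.0443%) and 10 lower (0.0885%) with hemin, and leaving out 1 library gave 0 to 1205, the highest without G2. Among them PGAM4 was at -1.71 (SE 0.40, adjusted p = 0.0468), ACSL1 at -1.36 (SE 0.31, adjusted p = 0.0468) and CYP51A1 at -0.58 (SE 0.11, adjusted p = 0.023), all 3 higher in Medium 2 than in Medium 1 under hemin. In Medium 2 no gene passed by edgeR (0%), 855 had an unadjusted p under 0.05, and DESeq2 called none. HMOX1, the usual readout of heme, had log2 differences of 0.39 (adjusted p = 0.235) in Medium 1 and -0.077 (adjusted p = 0.952) in Medium 2 with hemin, so a response of this marker to 0.1 µM was not detected in either medium.

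Higher and lower genes were also set beside their gene models in GENCODE release 29, which matched 97.4% of tested genes. Higher genes had a median of 7 exons in the longest transcript, lower genes 11 and all tested genes 9. Median transcript lengths were 3.1, 3.76 and 3.43 kb, and median spans on the genome 29.4, 32.7 and 33.5 kb. The median level was 83 CPM for higher, 31.3 for lower and 29.6 for all tested genes. The shares of called members in the lists above were not adjusted for level. Among the 20% of genes with the longest spans, 9.72% were higher and 11.3% lower, against 13.7% and 11.3% among the 20% with the shortest.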

How the data were processed

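RNA of 60 spheroid samples, labelled cytoplasmic, was read as 3′ tags with molecular identifiers (QuantSeq). The table the authors deposited holds estimated counts per gene, not all of them whole; the submitters' processing notes name Salmon 1.5.2 and STAR with build GRCh38, besides cutadapt 3.4, UMI-tools 1.1.2 and FastQC 0.11.9, and the sources used here give no settings. Counts were rounded (10.1% of values were not whole). Genes were kept by filterByExpr (minimum count 10, minimum total 15), which left 11298 of 29744 with 99.62% of counts, and scaled by TMM. The test was edgeR 4.0.16 (R 4.3.3) with a mean for each of 12 groups of 5 over all 60 libraries and 48 residual degrees of freedom. It was two-sided, with Benjamini-Hochberg adjustment over all tested genes and a threshold of 0.05. A check on simulated data drew each gene on its own, without shifts shared by whole libraries. It therefore does not show how often false calls arise where libraries of a group shift together.

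Columns were matched to groups by the medium and treatment in their names, and they carry wells in place of replicate numbers. Named genes were the 12 largest rises and 12 largest falls among called genes without overlap and with at least 10 CPM in the higher group, the 4 members of each of 35 lists with the smallest p, a set of heme and stress genes named whatever their result, and 6 genes in each direction (or the 3 with the smallest p) for the differences between treatments. The other genes in the text are further members of the lists. Some genes that the rule or the lists include are not reported here, though they count in the totals of the lists. Members, lists and rule were chosen with earlier results of these data known. Totals of 1346135 to 2545112 counts per hemin library limit what can be seen at low levels. Alternatives were RLE factors, no filter, plate row, thinning, fewer libraries, DESeq2 1.42.0 and leaving out libraries. Motif searches used RefSeq start regions of GRCh38.p14, and RefSeq names were found for 10328 tested genes under the table's symbol and for 761 under a former one, which left 209 without.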

Additional observations from a re-analysis of the deposited data

Results flagged for a closer look

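In 300 groups of 5 hemin libraries (150 named genes in 2 media) 12 values lay far from the other 4. Chance gives such a value in about 1 of 20 groups, so their number is not above chance. In Medium 1 well G2 gave 8 of them. RGPD5 at 16.1, ATF3 at 49.7, MT1G at 21.2, LDHA at 2600 and TGIF1 at 50.8 CPM were above the other wells, and STC2 at 53.3, SESN2 at 25.4 and AHSA1 at 170 CPM were below them. Well F2 was high for MPP3 at 20.2 CPM and low for NBPF15 at 39.1 CPM. In Medium 2 ANKRD37 was low in D6 at 71.3 CPM and MSMO1 high in E6 at 399 CPM. Why 8 of the 12 values came from well G2 was not tested.

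For 12 named genes the medium difference under hemin departed from its mean in the 5 other treatments, tested as a contrast in edgeR. It was larger by 1.56 for FHL3, 1.09 for TNRC6C, 2.31 for RGPD5, 0.692 for ARHGAP12, 0.825 for CDKN2A and 0.758 for KIF23 on the log2 scale. It departed by -1.12 for NACC1, -0.815 for POLR3A, -1.11 for CNOT11, -1.37 for DHRS4, -0.798 for SNRNP48 and -0.778 for SSU72. Other named genes passed the same edgeR contrast, among them PGAM4 (1.68), KLHL24 (1.11), TXNRD1 (0.84) and SNHG12 (-1.09), each with an adjusted p of 0.0433. ATF3 passed as well (0.80, adjusted p = 0.0466). None of the 12 passed without wells C2, D2 and F2, which were picked for lying far from untreated Medium 1 libraries. That choice by itself favours small differences.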

How the results depend on the processing

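Medium 2 against Medium 1 under hemin gave 994 to 1417 genes in each direction under RLE factors, no filter, plate row, thinning, only the 10 hemin libraries and DESeq2, against 1422 and 1283. Leaving out 1 library gave 967 to 1564 higher and 867 to 1573 lower. Without wells C2, D2 and F2, chosen after seeing the data, it gave 122 and 151, and the share higher among called genes went from 52.6 to 44.7%. In that fit 58 of 139 named genes kept their call and 81 lost it, and none reversed. That fit shares all its libraries with the full one, so kept signs are no separate check. The difference from untreated spheroids, 0 genes, was 2 without a filter, 1 with plate row, 6 with only the 20 libraries, 2 with DESeq2, and 0 to 100 leaving out 1 library. The difference from the 5 other treatments, 115 and 130 genes, was 1 and 0 with plate row, 296 and 346 with DESeq2, 0 and 0 without the 3 wells, and 0 to 643 and 0 to 739 leaving out 1 library. Hemin against untreated in Medium 1, 15 genes, was 225 without a filter, 1 with plate row, 58 thinned, 568 with DESeq2, 0 without the 3 wells and 0 to 1205 leaving out 1 library. The 3 wells were picked for lying far from untreated Medium 1 libraries, so the 0 counts without them were favoured by that choice. The cause of these shifts was not tested. In Medium 2 hemin against untreated gave 0 throughout. No paired analysis was possible because the table's columns carry wells and not the replicate numbers of the titles.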
